A study of Mus musculus with 23 samples.

Results

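The Hox genes are the 39 genes of the 4 mouse Hox clusters, and all 39 were rows of a deposited expression table of 21264 genes. They were taken by symbol, as every row named Hoxa, Hoxb, Hoxc or Hoxd followed by a number. The table holds 23 bulk RNA sequencing libraries in 5 groups, all from iPax3 cells, mouse embryonic stem cells in which switching on Pax3, a regulator of muscle formation in the embryo, is used to obtain myogenic progenitors. In 3 of the groups the cells were re-isolated after engraftment, and the label calls them donor-derived satellite cells, that is, resident muscle stem cells. These are N1OE cells (4 libraries), which overexpress NICD1, the intracellular domain of the receptor Notch1, N1KO cells (3 libraries), which carry a Notch1 knockout, and control cells of genotype WT (9 libraries). The other 2 groups are progenitors in culture, N1OE (3 libraries) and control of genotype WT (4 libraries). The labels give no age, host, induction time or number of clones, and they do not say whether replicates were separate cultures or animals. P-values therefore measure only the spread between these libraries, which may be technical.

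Hox genes encode homeodomain transcription factors that give cells their position along the head-to-tail axis and, in limbs, from shoulder or hip to digits. In each cluster the genes with low paralog numbers lie at one end and are switched on earlier and further towards the head, and those with high numbers follow in order towards the tail, a property called collinearity. Genes with the same number in different clusters are paralogs, descended from 1 ancestral gene. Adult muscle stem cells and connective tissue cells keep a Hox pattern that reflects where in the body they came from, and head muscles largely lack one. Pbx and Meis proteins are DNA-binding partners of Hox proteins, while Polycomb and Trithorax complexes hold the clusters silent or active.

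The Hoxa cluster lies on chromosome 6 (11 genes), Hoxb on chromosome 11 (10 genes), Hoxc on chromosome 15 (9 genes) and Hoxd on chromosome 2 (9 genes) of GRCm38. The values resolve to whole reads, and the depth of the libraries ran between 11637817 and 29154176 reads, which makes 3 reads worth 0.103 to 0.258 CPM. CPM are the reads of a gene scaled to a common library size. The re-isolated controls fell into 2 sets by a mark in the table's column headers that the labels do not explain, 5 marked (replicates 1, 4, 7, 8 and 9) and 4 unmarked (2, 3, 5 and 6). The same mark stands in the headers of all cultured controls and of cultured N1OE 1, but not of cultured N1OE 2 and 3. Below, marked and unmarked controls are re-isolated controls. The number of genes with 1 read, divided by the number with 2 reads, was 4.18 to 6.82 in re-isolated N1OE, 1.25 to 1.40 in N1KO, 4.17 to 5.91 in marked controls and 1.08 to 1.502 in unmarked controls. N1OE thus lay with the marked controls and N1KO with the unmarked ones in this measure of how low counts are spread. The labels name no batch, the comparisons with control use all 9 controls unless stated, and the part of this split in them was not tested beyond the values given against each set. Notch1 itself stood at 98.1 to 257 CPM in re-isolated N1OE, at 15.6, 19.8 and 52.6 CPM in N1KO and at 14.9 to 174 CPM in re-isolated controls, so that N1KO overlapped the controls. The labels do not say which part of Notch1 was removed, and reads outside that part check nothing. Pax7, the defining satellite cell gene, was present in every re-isolated library (11.5 to 154 CPM over all 16) and at or near 0 in culture, where the highest value was 0.891 CPM.

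The homeodomain binds DNA through its recognition helix. A stretch of 54 coding bases that covers it is printed for 5 Hox genes of the middle and tail end of the clusters that the results turn on, from the GENCODE M21 transcripts, 5′ to 3′ on the coding strand, with each base that differs from Hoxb9 in capitals.
Hoxb9: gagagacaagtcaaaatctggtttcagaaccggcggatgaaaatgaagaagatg
Hoxc9: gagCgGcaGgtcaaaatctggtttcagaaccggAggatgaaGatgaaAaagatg
Hoxc6: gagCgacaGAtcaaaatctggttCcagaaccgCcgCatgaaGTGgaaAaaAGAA
Hoxd8: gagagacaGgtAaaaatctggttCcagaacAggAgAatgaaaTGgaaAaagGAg
Hoxc10: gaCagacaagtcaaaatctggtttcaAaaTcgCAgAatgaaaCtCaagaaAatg
On GRCm38 these stretches are Hoxb9 chr11:96274782-96274835, Hoxc9 chr15:102984053-102984106, Hoxc6 chr15:103010877-103010930, Hoxd8 chr2:74706648-74706701, Hoxc10 chr15:102970971-102971024, all on the plus strand. Hoxc9 differed from its paralog Hoxb9 at 6 bases, Hoxc10 at 9, Hoxd8 at 11 and Hoxc6 at 14. Over whole transcripts, the longest run identical to one of another cluster was 50 bases between Hoxb9 and Hoxc9, 32 bases in Hoxd8 (shared with Hoxb8), 28 bases in Hoxc6 (shared with Hoxa3) and 23 bases in Hoxc10 (shared with Hoxb9). Reads inside such a run cannot be assigned to 1 gene, and the sources used here do not give how such reads were counted. Within the Hoxc cluster, Hoxc5 shares 5.4% of its exon bases with Hoxc10 on the same strand. Hoxd3 and Hoxd4 share 62.3% and 52.3% of theirs with each other or a predicted gene, and their values are uncertain. Exons of 10 Hox genes overlap a gene on the opposite strand, and the sources used here do not say whether counting used strand.

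Hox transcripts were scarce. The highest value in any library was 31.1 CPM (Hoxb4 in cultured control 4), and the Hox gene with the highest mean over all libraries had 6.29 CPM, below the mean of 51.1% of all genes. Of the 39 genes, 28 reached 1 CPM in at least 1 library, 17 of them in 3 libraries or more, 11 never did, and Hoxd12 had no read anywhere.

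**Figure D1:**
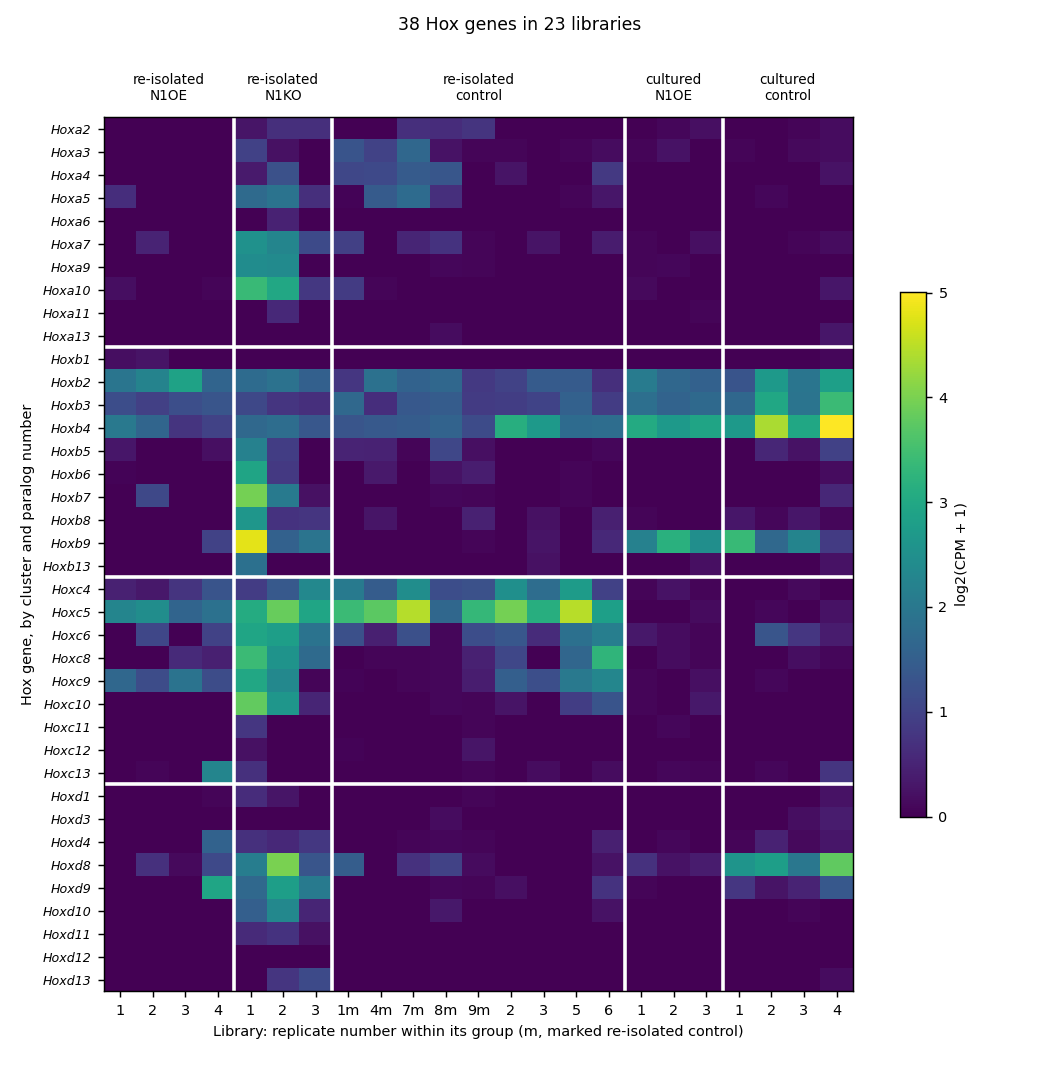
Level of 38 Hox genes (rows, by cluster and paralog number) in each library (columns, by group; m marks the 5 marked controls), as log2(CPM + 1). Cultured cells carried Hoxb2, Hoxb3, Hoxb4 and Hoxb9, and cultured controls also Hoxd8; re-isolated cells carried Hoxc5 with Hoxb2 to Hoxb4; N1KO libraries 1 and 2 carried genes of paralog numbers 5 to 10 in all 4 clusters.

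The groups shared some of their leading genes and differed in others. Per kilobase of exon, cultured N1OE cells were led by Hoxb4 (2.51 CPM per kilobase) and Hoxb9 (2.09), and cultured controls by Hoxb4 (6.15), Hoxd8 (2.44) and Hoxb9 (1.57). Re-isolated N1OE cells were led by Hoxb2 (1.08 CPM per kilobase) and Hoxc5 (1.06), and re-isolated controls by Hoxc5 (3.74), Hoxb4 (1.14) and Hoxc4 (1.11). N1KO cells were led by Hoxb9 (4.07 CPM per kilobase), Hoxb7 (3.87), Hoxc10 (3.24) and Hoxc5 (2.96) in the group mean. The N1KO libraries did not share this order, since the Hox gene with the most CPM was Hoxb9 in N1KO 1, Hoxd8 in N1KO 2 and Hoxc5 in N1KO 3. The spread between replicates was wide, at 10.5 ± 14.1 CPM for Hoxb9 in N1KO (SD, n = 3) and 15.8 ± 12.1 CPM for Hoxb4 in cultured controls (SD, n = 4), and the order of neighbours was not tested.

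The genes with the highest mean level of their cluster on the log2 scale included Hoxa7, Hoxb4 and Hoxb2, Hoxc5 and Hoxc4, and Hoxd8 and Hoxd9. Hoxb4 had 3.09, 2.11, 0.687 and 0.985 CPM in re-isolated N1OE 1 to 4, 2.25, 2.48 and 1.56 CPM in N1KO, and 1.205 to 7.81 CPM in re-isolated controls, where unmarked controls 2 and 3 were the high ones, with all 3 ranges overlapping. Hoxc5 had 7.48, 13.3 and 6.66 CPM in N1KO, within the range of the re-isolated controls, and Hoxc4 had 0.843, 1.65 and 4.08 CPM in N1KO. Hoxb2 had 2.36, 2.70 and 1.88 CPM in N1KO. In culture Hoxc4 did not exceed 0.189 CPM and Hoxa7 did not exceed 0.152 CPM in any library.

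The number of Hox genes at 1 CPM or more was 4 to 9 in re-isolated N1OE libraries, 22, 18 and 11 in N1KO libraries 1, 2 and 3, and 4 to 10 in re-isolated controls. In culture it was 4 in each N1OE library and 5 or 6 in controls. Over the whole table, 12694 to 12877 genes reached 1 CPM in re-isolated N1OE, 12639 to 13754 in N1KO and 12149 to 12942 in re-isolated controls. The Hox CPM of a library summed to 14.4 to 26.1 in re-isolated N1OE, to 144, 97.1 and 34.2 in N1KO 1, 2 and 3, and to 16.2 to 41.8 in re-isolated controls. In culture it summed to 17.01 to 19.01 CPM in N1OE and to 22.5 to 69.7 CPM in controls. Genes of paralog numbers 10 to 13, the tail end of the clusters, made up 20.1%, 18.7% and 8.63% of the Hox CPM in N1KO 1, 2 and 3, against 0% to 5.37% in re-isolated controls.

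**Figure D2:**
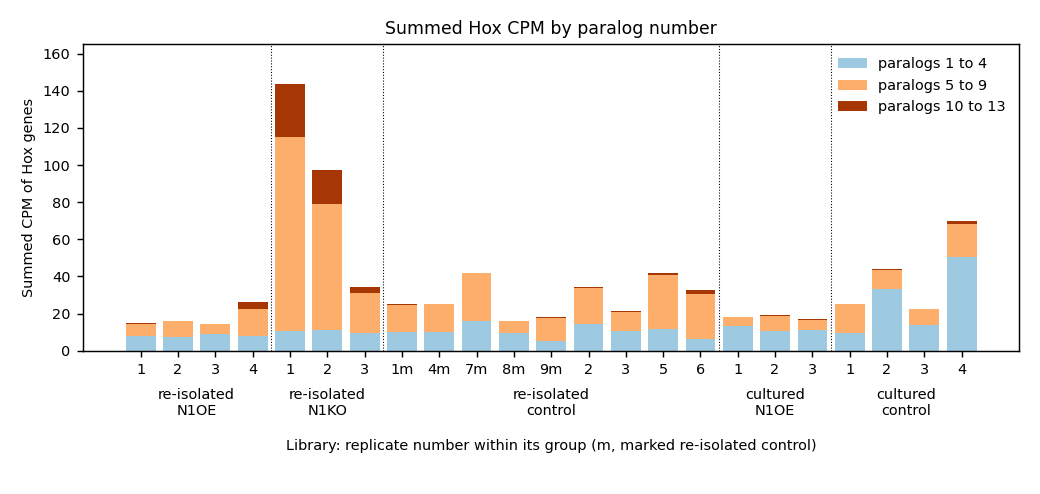
Hox CPM summed over the 39 genes in each library, split by paralog number (colours); libraries run along the axis by group, and m marks the 5 marked controls. N1KO libraries 1 and 2, at 144 and 97.1 CPM, stand above every other library, and N1KO 3, at 34.2 CPM, lies within the range of the re-isolated controls.

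In re-isolated N1KO cells, most middle and tail-end Hox genes had a higher mean level than in control, unevenly over the 3 libraries, and Hoxb9 alone passed the test. This comparison asks what loss of Notch1 did to engrafted cells. Mean CPM was higher in N1KO for 14 of 15 genes of paralog numbers 5 to 9 and for 10 of the 11 genes of numbers 10 to 13 with a read in either group, and for 5 of 11 genes of numbers 1 to 4 with a read. Hoxc5 and Hoxa13 were the exceptions past number 4. Over every gene of the table with a read, 47.3% had a higher mean in N1KO. The difference was not even among the 3 libraries. Hox CPM summed to 144, 97.1 and 34.2 in N1KO 1, 2 and 3, against 16.2 to 41.8 in re-isolated controls.

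Hoxb9, a paralog of the thoracic region of the trunk, had 26.7, 1.93 and 2.79 CPM in N1KO 1, 2 and 3, against 0 to 0.482 CPM in re-isolated controls (median 0). The groups did not overlap, which the filter described below fixed in advance for this gene, and N1KO 1 was far above the others. Hoxb9 was the only Hox gene of 17 tested that rose past the threshold, by 5.88 ± 1.22 on the log2 scale (SE; limma adjusted p = 0.0343), with a mean of 10.5 CPM in N1KO against 0.0826 CPM in control. Over all genes tested, 0.466% rose, 0.191% fell and 0.657% changed in either direction. Genes were tested with 1 CPM or more in at least 3 libraries of the fit. Hoxa7 and Hoxb9 reached 1 CPM in N1KO libraries alone, and others of the 17, among them Hoxa5, Hoxb7, Hoxc10, Hoxd8 and Hoxd9, would have failed the filter without them, so counts over the 17 describe N1KO in part by construction.

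None of the other Hox genes tested passed after adjustment. Hoxd9, which with Hoxa9 acts in the lower trunk and limbs, had 2.25, 6.001 and 3.12 CPM in N1KO 1, 2 and 3, against 0 to 0.663 CPM in control (log2 difference 5.16 ± 1.34, limma adjusted p = 0.0767). Hoxb7 had 14.6, 3.14 and 0.161 CPM in N1KO, against 3 reads in all 9 controls. With reads pooled over each group and divided by the pooled depth, the ratio was 364 (95% counting interval 123 to 1773; limma adjusted p = 0.0798). Hoxa7, a trunk gene, had 4.78, 3.85 and 1.18 CPM in N1KO, against 0 to 0.933 CPM in control (3.82 ± 1.15, adjusted p = 0.143). In all 3 genes no N1KO library overlapped a control, which the filter fixed in advance for Hoxa7. Hoxb7 and Hoxd9 would have failed the filter without N1KO. Hoxd8 had 3.37, 15.0 and 1.504 CPM in N1KO, against 0 to 1.80 CPM in control (adjusted p = 0.118). Hoxc10, a gene of the lumbar trunk and the hindlimb field, had 12.9, 5.18 and 0.430 CPM in N1KO, against 0 to 1.45 CPM in control (adjusted p = 0.118). Hoxc8 had 9.67, 4.96 and 2.31 CPM in N1KO, against 0 to 8.74 CPM in control (adjusted p = 0.223). In these 3 genes the ranges overlapped, and N1KO 3 was the lowest of the N1KO libraries.

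Some tail-end genes stayed under the filter. Hoxa10, which patterns the lumbar spine and upper limb bones, had 9.44, 7.05 and 0.752 CPM in N1KO, against 25 reads in all controls, 24 of which lay in marked control 1. Hoxa9 had 4.39 and 4.24 CPM in N1KO 1 and 2 and 0 in N1KO 3, against 2 reads in all controls. Hoxd10 had 1.86, 4.02 and 0.430 CPM in N1KO, against at most 0.242 CPM in control. Hoxb13 had 2.59 CPM in N1KO 1 and none in N1KO 2 and 3, against at most 0.167 CPM in control, and Hoxd13, a digit gene, had 0, 0.716 and 1.18 CPM in N1KO, against 0 in every control. These were not tested.

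Among the 11 genes of paralog numbers 1 to 4 with a read, N1KO and control overlapped in all but Hoxd4, which had 0.618, 0.495 and 0.752 CPM in N1KO, against 0 to 0.361 CPM in control, and was not tested. Hoxc5 overlapped too. Hoxc5 averaged 9.13 ± 3.60 CPM in N1KO (n = 3) and 11.5 ± 6.44 CPM in control (SD, n = 9; log2 difference -0.15 ± 0.54, limma adjusted p = 0.957). Hoxb4 averaged 2.09 ± 0.479 CPM in N1KO and 2.91 ± 2.23 CPM in control, and Hoxc4 2.19 ± 1.69 CPM in N1KO and 2.86 ± 1.72 CPM in control, with adjusted p of 0.941 and 0.881. Among the 17 tested genes the median log2 difference was 2.26, against 0.01 over all genes tested.

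**Figure D3:**
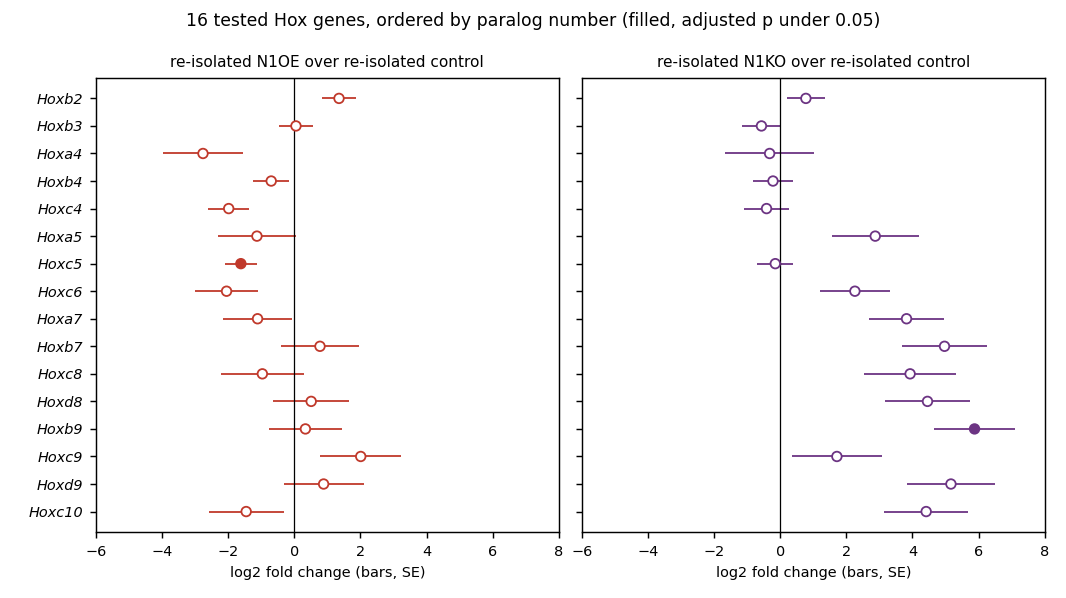
Log2 fold change with its SE for 16 of the 17 tested Hox genes, ordered by paralog number, for re-isolated N1OE over control (left panel) and re-isolated N1KO over control (right panel); filled points passed an adjusted p of 0.05. In N1KO the estimates of paralogs 5 to 10 other than Hoxc5 lie above 0, and Hoxb9 alone is filled; in N1OE Hoxc5 alone is filled.

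The Hoxb9 call depended on the libraries. It held against the marked controls alone (limma adjusted p = 0.0161) and against the unmarked controls alone (adjusted p = 0.0306), but not without N1KO 1, 2 or 3 with the same genes tested (adjusted p = 0.211, 0.127 and 0.0513), nor without control 2, 4 or 5 (0.0517, 0.0508 and 0.0501). Against marked controls, Hoxc8 and Hoxd9 also rose (adjusted p = 0.0207 and 0.0443), where 2.59% of all genes tested rose, and against unmarked controls Hoxd8 rose (0.00999), where 3.88% of all genes did. The log2 difference of Hoxc8 was 5.30 against marked and 2.22 against unmarked controls (adjusted p = 0.384 for the last). For Hoxc9 it was 3.64 against marked and -0.70 against unmarked controls, and neither passed (0.0924 and 0.782). Limma-voom on the recovered reads called 7 Hox genes, all higher in N1KO, where it called 1.79% of all genes higher, and the note on the filter holds for these too.

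Transcripts of connective tissue were abundant in N1KO libraries. The 7 fibroblast markers summed to 20570, 38750 and 13090 CPM in N1KO 1, 2 and 3, to 8504 to 16570 CPM in marked controls and to 2058 to 4198 CPM in unmarked controls. All 7 were at 1 CPM or more in every N1KO library and none was at 0 throughout any re-isolated group. Pdgfra averaged 25.9 CPM in N1KO, 23.1 CPM in marked and 4.70 CPM in unmarked controls. Ly6a averaged 120 CPM in N1KO, 95.8 CPM in marked and 37.5 CPM in unmarked controls. For both, N1KO and marked controls overlapped. Tnmd, a tendon gene, had 239, 1123 and 229 CPM in N1KO, against 0 to 38.8 CPM in control. Of the other chondrocyte and tendon markers, Sox9 was lower in N1KO, with a mean of 429.5 CPM against 620.5 CPM in control. Scx averaged 6.81 CPM in N1KO and 5.61 CPM in control, and Acan 14.0 CPM in N1KO and 0.538 CPM in control. The 4 chondrocyte and tendon markers summed to 605 to 1580 CPM in N1KO, against 289 to 1137 CPM in control. The 5 endothelial markers summed to 37.8 to 116 CPM in N1KO, against 4.86 to 35.8 CPM in control. The 11 satellite cell markers summed to 1144 to 2302 CPM in N1KO, against 1485 to 3537 CPM in control. In bulk libraries more cells of a type and more RNA per cell cannot be told apart, and the part of these transcripts in the Hox difference was not tested.

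Re-isolated N1OE cells had a lower level of Hoxc5, a gene of the neck and forelimb level, and no other Hox gene passed. This comparison asks what NICD1 did to engrafted cells. Hoxc5 had 3.84, 4.49, 2.06 and 2.65 CPM in N1OE 1 to 4, against 2.18 to 21.2 CPM in re-isolated controls (median 9.68). All but marked control 8 lay above every N1OE library. It fell by 1.62 ± 0.49 on the log2 scale (SE; limma adjusted p = 0.0498), 1 Hox gene of 17 tested, against 7.06% of all genes tested (3.78% higher, 3.29% lower), so that the Hox share was near the background. Hoxc4, its neighbour, had 0.377, 0.258, 0.687 and 1.45 CPM in N1OE 1 to 4, against 0.964 to 5.68 CPM in control (median 2.46; -1.98 ± 0.62, adjusted p = 0.0556). Only N1OE 4 and control ranges overlapped. The 7 fibroblast markers summed to 1597 to 2422 CPM in N1OE, against 8504 to 16570 CPM in marked and 2058 to 4198 CPM in unmarked controls. The 5 endothelial markers summed to 39.3 to 84.6 CPM in N1OE, against 4.86 to 35.8 CPM in control, and the part of either in the Hox values was not tested. Mean CPM was lower in N1OE for 24 of the 34 Hox genes with a read, and higher for 10, while 48.9% of all genes with a read had a higher mean in N1OE.

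Hoxc5 passed against the unmarked controls alone (limma adjusted p = 0.0110), as did Hoxc4 (0.0458), where 10.1% of all genes tested fell. Hoxc5 did not pass against the marked controls alone (0.0844), with a log2 difference of -1.47. Leaving out any 1 library ended its call in 11 of 13 cases (adjusted p up to 0.160, without N1OE 3), the exceptions being unmarked control 6 and marked control 8, and limma-voom gave an adjusted p of 0.131 with a log2 difference of -1.57. Over all alternatives run the difference stayed between -1.88 and -1.39. Hoxc9 had 2.20, 1.24, 2.75 and 1.25 CPM in N1OE 1 to 4, against 0 to 3.92 CPM in control. It rose against marked controls alone, by 3.94 ± 1.11 (adjusted p = 0.0229; 6.26% of all genes rose), and not against all controls (2.01 ± 1.22, adjusted p = 0.343). Hoxa4, a gene of the neck level, had no read in any N1OE library and averaged 0.719 CPM in control. That is at least 18.8-fold lower with 3 reads set over the N1OE group, and it did not pass (limma adjusted p = 0.178). Hoxb2, a hindbrain gene, had 2.85, 3.71, 6.36 and 2.07 CPM in N1OE, against 0.602 to 2.64 CPM in control (1.35 ± 0.51, adjusted p = 0.114). N1OE 4 stood apart with 6.69 CPM of Hoxd9, 3.84 CPM of Hoxc13 and 1.97 CPM of Hoxd4, where the other 3 N1OE libraries had at most 0.0516 CPM of each.

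**Figure D4:**
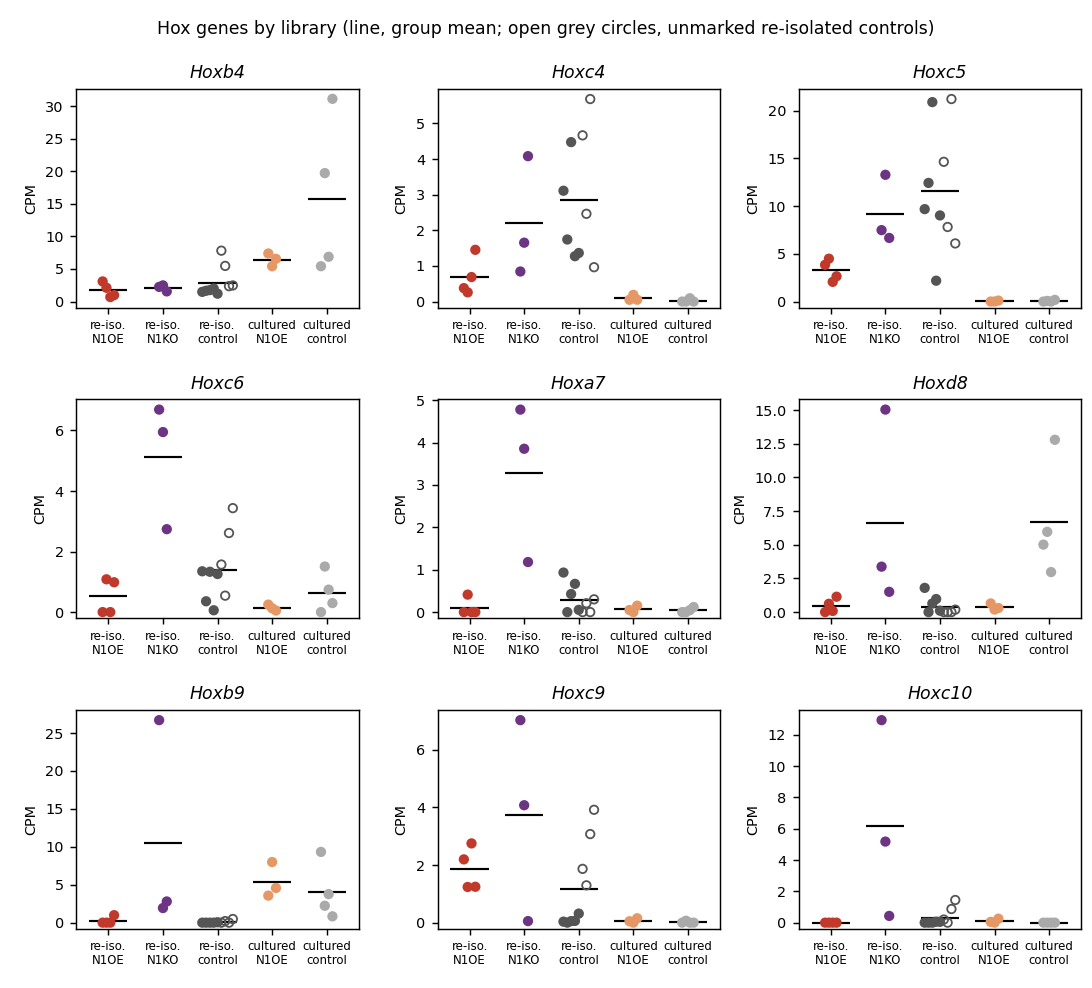
CPM of 9 Hox genes in each library by group (points; line, group mean; open grey circles, unmarked re-isolated controls). Hoxc5 and Hoxc4 are near 0 in culture and present in re-isolated cells, and Hoxb9 reaches 26.7 CPM in N1KO library 1. Hoxd8 is high in cultured controls and in N1KO library 2, and low both in N1OE and in re-isolated controls.

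Set against each other, re-isolated N1OE and N1KO cells differed in Hoxc10, Hoxb9, Hoxa7 and Hoxc6, all lower in N1OE. Over all genes tested, 7.35% passed, 2.92% higher and 4.43% lower in N1OE. Of the 4, Hoxa7 and Hoxb9 reach 1 CPM in N1KO alone and Hoxc10 would also have failed the filter without N1KO, so their number among the 17 tested is not read against that share. Hoxc10 had no read in N1OE, against 12.9, 5.18 and 0.430 CPM in N1KO, which is at least 161-fold lower with 3 reads set over the N1OE group (limma adjusted p = 0.0162). Hoxb9 had 0, 0, 0 and 0.985 CPM in N1OE 1 to 4, against 26.7, 1.93 and 2.79 CPM in N1KO (-5.54 ± 1.40, adjusted p = 0.0181). Hoxa7 had 0.412 CPM in N1OE 2 and 0 in the other 3, against 4.78, 3.85 and 1.18 CPM in N1KO (-4.93 ± 1.31, adjusted p = 0.0249). Hoxc6, a gene of the forelimb level, had 0, 1.08, 0 and 0.985 CPM in N1OE, against 6.69, 5.95 and 2.74 CPM in N1KO (-4.31 ± 1.21, adjusted p = 0.0325). In none of the 4 did the groups overlap, which the filter fixed in advance for Hoxa7 and Hoxb9. With the same genes tested, leaving out N1KO 1 ended all 4 calls (adjusted p = 0.136, 0.166, 0.130 and 0.135 for Hoxc10, Hoxb9, Hoxa7 and Hoxc6). Hoxc6 and Hoxa7 were also lost without N1OE 1 (0.0866 and 0.0533) or N1OE 3 (0.1004 and 0.0603), Hoxa7 without N1OE 4 (0.0545), and Hoxc10, Hoxa7 and Hoxc6 without N1KO 2 (0.0856, 0.106 and 0.117). The 7 fibroblast markers summed to 1597 to 2422 CPM in N1OE, against 13090 to 38750 CPM in N1KO, and their part in the difference was not tested. Mean CPM was lower in N1OE for 8 of 11 genes of paralog numbers 1 to 4 with a read, for 15 of 15 of numbers 5 to 9 and for 9 of 10 of numbers 10 to 13. Over every gene with a read it was higher in N1OE for 51.2%. This comparison and the one of N1KO with control share the N1KO libraries. In how low counts are spread, N1OE (4.18 to 6.82) and N1KO (1.25 to 1.40) lay apart without overlap. The part of that split in the 4 calls could not be separated from genotype and was not tested. Among controls, the marked set lay with N1OE. Its mean CPM was below the unmarked set for Hoxc10 (0.0226 against 0.628), Hoxb9 (0.0105 against 0.173) and Hoxc6 (0.871 against 2.04). For Hoxa7 it was above (0.416 against 0.1275).

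In culture, N1OE progenitors had less Hoxd8, a trunk gene that lies in the middle of its cluster. This comparison asks what NICD1 did before engraftment. All controls and N1OE 1 carry the header mark, N1OE 2 and 3 do not, and the part of the mark was not tested. Hoxd8 had 0.644, 0.189 and 0.305 CPM in N1OE 1, 2 and 3, against 5.01, 5.96, 2.97 and 12.8 CPM in controls 1 to 4. The groups did not overlap. It fell by 3.90 ± 0.57 on the log2 scale (SE; limma adjusted p = 0.0108), 1 Hox gene of 5 tested, against 10.8% of all genes tested (4.73% higher, 6.03% lower). Under median ratio scaling the calls over all genes split into 433 higher and 849 lower, against 583 higher and 742 lower as reported. The Hoxd8 call was lost without N1OE 2 (adjusted p = 0.0575) or N1OE 3 (0.0632), with log2 differences of -3.55 and -3.83. Hoxd9, next to it, had 0.0495 CPM in N1OE 1 and none in N1OE 2 and 3, against 0.735, 0.196, 0.418 and 1.61 CPM in controls 1 to 4, and lay below the filter.

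The Hoxb genes that dominate in culture did not pass. Hoxb4, a gene of the hindbrain and neck that is also known for its role in blood stem cells, had 7.38, 5.41 and 6.55 CPM in N1OE, against 5.42, 19.7, 6.87 and 31.1 CPM in control (-0.94 ± 0.61, limma adjusted p = 0.320). Hoxb3, a gene of the hindbrain and neck, had 2.57, 2.01 and 2.29 CPM in N1OE, against 2.21, 6.88, 2.78 and 9.70 CPM in control (-0.97 ± 0.53, adjusted p = 0.246). Control libraries 2 and 4 were the high ones in both. The 7 fibroblast markers summed to 13.6 to 15.6 CPM in N1OE, against 42.5, 154, 281 and 2447 CPM in controls 1 to 4, and Pax3 stood at 358 to 553 CPM in N1OE, against 1328, 232, 844 and 77.8 CPM in controls 1 to 4. The part of these differences in the Hox values was not tested. Hoxb9 had 3.56, 7.99 and 4.57 CPM in N1OE, against 9.33, 2.23, 3.76 and 0.833 CPM in control, and Hoxb2 averaged 2.45 ± 0.679 CPM in N1OE and 3.98 ± 2.17 CPM in control. Their adjusted p were 0.490 and 0.517. Hoxc genes were nearly silent in culture, since their summed CPM came to 0.396 to 0.711 in N1OE and to 0 to 1.70 in control.

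No Hox gene of 12 tested passed for the difference between the NICD1 effects in re-isolated and cultured cells, where 3.22% of 14245 genes passed (2.31% positive, 0.913% negative). Limma-voom also called no Hox gene for this difference. The estimate for Hoxd8 was 4.41 ± 1.60 (adjusted p = 0.156) and for Hoxc4 -2.97 ± 0.98 (adjusted p = 0.107).

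Re-isolated control cells had more Hoxc4 and Hoxc5 than cultured control cells and less Hoxb2, Hoxb3, Hoxb4, Hoxb9 and Hoxd8. Setting and library kit cannot be told apart here, because cultured cells were made into TruSeq stranded libraries after Trizol extraction and re-isolated cells into NEBNext low-input and Nextera XT libraries after lysis in Buffer RLT. In re-isolated over cultured controls, 7 of 12 Hox genes tested passed, 2 higher and 5 lower, while 58.1% of all genes passed (24.1% higher, 33.9% lower), so the share of Hox genes was near the background. The median log2 difference over all genes was -0.23.

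Hoxc5 had 2.18 to 21.2 CPM in re-isolated controls (median 9.68), against 0, 0.0655, 0 and 0.178 CPM in cultured controls 1 to 4 (6.67 ± 0.60, limma adjusted p = 3.1e-07). Hoxc4 had 0.964 to 5.68 CPM in re-isolated controls (median 2.46), against 2 reads in all cultured controls, a read ratio of 110 (95% counting interval 30.2 to 907; adjusted p = 4.0e-06). Neither overlapped. Hoxd8 had 0 to 1.80 CPM in re-isolated controls (median 0.105), against 2.97 to 12.8 CPM in cultured controls (-4.90 ± 1.02, adjusted p = 7.7e-04). Hoxb9 had 0 to 0.482 CPM in re-isolated controls, against 0.833 to 9.33 CPM in cultured controls (-5.01 ± 0.85, adjusted p = 1.4e-04). Both were without overlap. Hoxb4 averaged 2.91 ± 2.23 CPM in re-isolated controls and 15.8 ± 12.1 CPM in cultured controls (-2.33 ± 0.56, adjusted p = 0.00234), and Hoxb3 averaged 1.30 ± 0.593 CPM in re-isolated controls and 5.39 ± 3.54 CPM in cultured controls (-1.88 ± 0.51, adjusted p = 0.00512). Hoxb2 was lower too (-1.36 ± 0.52, adjusted p = 0.0360). Its call ended against the marked controls alone (adjusted p = 0.0878), under another scaling (0.0740), without re-isolated control 1, 6 or 9 (0.0501, 0.0548 and 0.0551) and without cultured control 2, 3 or 4 (0.126, 0.0605 and 0.125).

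With NICD1, Hoxc5 and Hoxc9 were higher and Hoxb9 and Hoxb4 lower in re-isolated than in cultured cells. In re-isolated over cultured N1OE, 4 of 6 Hox genes tested passed, against 58.2% of all genes (25.3% higher, 33.0% lower). Hoxc5 had 3.84, 4.49, 2.06 and 2.65 CPM in re-isolated N1OE, against 2 reads in all cultured N1OE (read ratio 96.2, 95% counting interval 26.4 to 798, limma adjusted p = 9.5e-06). Hoxc9 averaged 1.86 ± 0.746 CPM in re-isolated N1OE and 0.0673 ± 0.0777 CPM in cultured N1OE (4.09 ± 0.67, adjusted p = 1.6e-04). Hoxb9 averaged 0.246 ± 0.493 CPM in re-isolated N1OE and 5.38 ± 2.32 CPM in cultured N1OE (-5.49 ± 0.97, adjusted p = 2.9e-04). Hoxb4 averaged 1.72 ± 1.10 CPM in re-isolated N1OE and 6.45 ± 0.986 CPM in cultured N1OE (-2.09 ± 0.54, adjusted p = 0.00455). All 4 genes were without overlap, with n = 4 and n = 3.

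The 2 sets of re-isolated controls differed in Hoxc9. It had 0 to 0.314 CPM in the 5 marked controls, against 1.87, 1.29, 3.07 and 3.92 CPM in unmarked controls 2, 3, 5 and 6 (-4.34 ± 0.87, limma adjusted p = 0.00430). The sets did not overlap. The 7 fibroblast markers summed to 8504 to 16570 CPM in marked and to 2058 to 4198 CPM in unmarked controls, and the 11 satellite cell markers to a median of 1881 CPM in marked and 3162 CPM in unmarked controls. Their part in the Hoxc9 difference was not tested. Hoxc9 was 1 of 9 Hox genes tested, against 27.6% of all genes (13.6% higher, 14.0% lower). Marked control 7 carries no mark in its description. With the sets drawn by description, no gene passed (2304 of 13230 at an unadjusted p under 0.05, and none by limma-voom), and Hoxc9 had an adjusted p of 0.250. Hoxa3, Hoxa4 and Hoxa5, genes of the neck level, were highest in marked control 7, at 2.18, 1.71 and 2.34 CPM. In the other 4 marked controls they lay between 0 and 1.70 CPM, against at most 0.783 CPM in unmarked controls, so that the sets overlapped. Hoxc8 and Hoxc10 were highest in unmarked control 6, at 8.74 and 1.45 CPM.

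The partners and regulators of Hox genes were given by lists drawn up with earlier results of these data known. Of 10 Pbx, Meis and related partners, all tested, 1 fell in cultured N1OE, none passed in re-isolated N1OE or in N1KO over control, and 1 rose and 6 fell in re-isolated over cultured controls. Over all genes tested, 6.03% fell in cultured N1OE, 7.06% passed in re-isolated N1OE and 0.657% in N1KO, and 24.1% rose and 33.9% fell in re-isolated over cultured controls. Pbx3 averaged 25.4 CPM in cultured N1OE and 80.7 CPM in cultured controls (-1.65 ± 0.19, limma adjusted p = 0.00518). Pbx2 averaged 4.51 CPM in re-isolated controls and 91.4 CPM in cultured controls (-4.33 ± 0.22, adjusted p = 1.6e-09), and Tgif1 rose to 297 CPM in re-isolated controls, against 81.0 CPM in culture.

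Of 16 Polycomb genes, 1 rose in cultured N1OE (Ezh2, the histone methyltransferase, at 106 CPM against 41.7 CPM in control, 1.40 ± 0.25, limma adjusted p = 0.0192), 1 rose in re-isolated N1OE (Ezh1, its paralog, at 109 CPM against 45.1 CPM in control, 1.15 ± 0.29, adjusted p = 0.0185) and none passed in N1KO over control. In re-isolated over cultured controls 8 fell and none rose (33.9% and 24.1% of all genes), among them Pcgf2, at 0.893 CPM against 39.9 CPM (-5.48 ± 0.41, adjusted p = 5.7e-08). Of 10 Trithorax and demethylase genes, 1 rose in cultured N1OE (Men1), 1 rose in re-isolated N1OE (Kmt2a, at 80.2 CPM against 35.04 CPM in control, adjusted p = 0.0325), none passed in N1KO over control, and 7 fell in re-isolated over cultured controls. Over all genes, 4.73% rose in cultured N1OE and 3.78% in re-isolated N1OE, and 0.657% passed in N1KO over control.

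Retinoic acid opens Hox clusters from the head end. Of 11 genes of its pathway, 8 were tested in culture, and 1 rose in N1OE, where 4.73% of all genes rose. It was the retinol importer Stra6 (14.8 CPM against 1.81 CPM in control, 3.40 ± 0.75, limma adjusted p = 0.0339). In re-isolated N1OE 3 of 11 fell, Crabp2, Stra6 and Cyp26c1, and none rose, where 3.29% of all genes fell and 3.78% rose. Crabp2, which carries retinoic acid to its receptor, had 4.38 to 5.05 CPM in N1OE, against 47.3 to 472.5 CPM in control (-4.64 ± 0.49, adjusted p = 2.0e-05). None of the 11 passed in N1KO over control, where 0.657% of all genes did. In re-isolated over cultured controls 6 of 11 rose and 2 fell, against 24.1% and 33.9% of all genes. Of 13 posterior growth genes, Wnt5a fell in cultured N1OE (9.79 CPM against 36.9 CPM in control, adjusted p = 0.0166) and in re-isolated N1OE (22.2 CPM against 60.6 CPM in control, adjusted p = 0.0141). Gdf11, a signal for the switch to tail-end Hox genes, rose in cultured N1OE (80.6 CPM against 49.4 CPM in control, adjusted p = 0.0456). In N1KO none of the 3 tested passed, and in re-isolated over cultured controls 3 of 4 fell (33.9% of all genes). The 15 noncoding RNAs and microRNAs listed for the Hox clusters were not analysed here.

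Other genes of position were described by lists as well. Of 17 head and anterior genes, 9 were tested in re-isolated cells, and 3 rose and 2 fell in N1OE, while 2 rose and none fell in N1KO. Over all genes 3.78% rose and 3.29% fell in N1OE, and 0.466% rose and 0.191% fell in N1KO. Otx2, a gene of the forebrain and midbrain, had 7.92, 49.7, 38.5 and 62.9 CPM in re-isolated N1OE and 14.5, 20.5 and 21.9 CPM in N1KO, against 0 to 4.64 CPM in control. It rose in both, by 8.07 ± 0.95 in N1OE (limma adjusted p = 3.5e-05) and by 7.33 ± 1.06 in N1KO (adjusted p = 0.00258), in comparisons that share the controls. Dlx5, a gene of the jaw, limb rim and bone, had 10.5, 12.2 and 3.44 CPM in N1KO, against 0 to 0.996 CPM in control, and rose by 4.75 ± 0.98 (adjusted p = 0.0337). Msc, a gene of head muscle, averaged 555 CPM in re-isolated N1OE and 174 CPM in control (1.91 ± 0.41, adjusted p = 0.00678), and Isl1 averaged 0.593 CPM in re-isolated N1OE and 72.4 CPM in control (-6.12 ± 1.48, adjusted p = 0.0158). In cultured N1OE 2 of 6 tested rose, Msc and Nkx2-5, where 4.73% of all genes rose. In re-isolated over cultured controls 5 rose and 3 fell of 8, against 24.1% and 33.9% of all genes.

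Of 12 limb genes, 7 were tested in re-isolated cells, and 1 rose in N1OE (Tbx3, at 42.9 CPM against 2.95 CPM in control, 5.04 ± 1.01, limma adjusted p = 0.00396), while none passed in N1KO. Over all genes tested, 3.78% rose in re-isolated N1OE and 0.657% passed in N1KO. Pitx1, which marks the hindlimb, had 25.9, 16.8, 48.9, 0 and 1.52 CPM in marked controls 1, 4, 7, 8 and 9, against 0, 0, 0 and 0.120 CPM in unmarked controls 2, 3, 5 and 6 (adjusted p = 0.0213). It had no read in re-isolated N1OE and 0.169, 0 and 3.22 CPM in N1KO. Tbx5, which marks the forelimb, had no read in any re-isolated library. In cultured N1OE 2 of 5 tested rose and 1 fell, against 4.73% and 6.03% of all genes. The last was Emx2, at 0.154 CPM against 4.88 CPM in control (-4.79 ± 0.76, adjusted p = 0.0133). Of 7 tested between re-isolated and cultured controls, 2 rose and 1 fell, a lower share than the 58.1% of all genes that passed. Of 14 trunk mesoderm genes, 2 of 4 tested rose in cultured N1OE (4.73% of all genes), among them Eya1 at 46.6 CPM against 25.7 CPM in control (0.87 ± 0.14, limma adjusted p = 0.0147). In re-isolated N1OE 2 rose and 1 fell of 11 (3.78% and 3.29% of all genes), with Meox2 at 5.81 CPM against 37.6 CPM in control (-2.50 ± 0.54, adjusted p = 0.00678), and none of 11 passed in N1KO. Of 10 tested between re-isolated and cultured controls, 3 rose and 1 fell, again against 58.1% of all genes.

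Promoter sequence was searched for motifs of the pathway and of Hox partners in the 250 bases before each start site in RefSeq (GRCm38.p6), on both strands. The core site of RBPJ, the DNA-binding partner of NICD1 (TGGGAA), was found in 4 of 24 Hox windows from 22 genes, against 21.6% of all 32851 windows. The combined Pbx and Hox site (TGATNNAT) was also found in 4 of 24, against 7.68% of all windows. None of the windows for Hoxd8, Hoxb4, Hoxc4 or Hoxa7 held either, which says only that these letters are not in those windows. Hoxb2, Hoxb3, Hoxb9, Hoxc5, Hoxc6, Hoxc9 and Hoxc10, which also passed in comparisons above, had no window and were not searched.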

How the data were processed

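The submitters' processing notes list Trimmomatic 0.33, FastQC, featureCounts, edgeR and the mm10 build; no aligner or annotation is named there. The authors deposited 1 table of log2 CPM with a small prior, whose lowest value, -4.19, stands for 0 reads. Dividing by the value of 1 read gave whole reads for 100.0% of entries under 200 reads (tolerance 0.05). Counting intervals cover counting error only. The share of all genes without overlap between groups is not given here, so lack of overlap describes single genes and is not a test.

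The deposited log2 values were tested with limma 3.58.1 in R 4.3.3 (eBayes with a trend, two-sided, Benjamini-Hochberg over all genes tested, threshold 0.05, genes at 1 CPM or more in 3 or more of the libraries fitted). The 3 re-isolated groups shared 1 fit, and other comparisons used their own groups. The script was tested on simulated data. A fold against 0 reads sets 3 reads over that group. The rule named every Hox gene past the threshold where a comparison had 8 or fewer, the 2 per cluster with the highest mean log2 CPM, and at most 4 per list past the threshold; other Hox genes named were chosen after their values were seen. The members, lists, naming rule and alternatives were chosen with earlier results of these data known. Alternatives were a pseudocount of 1 CPM, no filter, a filter of 5 CPM, median ratio scaling, limma-voom, array weights, replicate numbers as a block, 2 groups alone, each control set alone and leaving out each library. Figures were drawn with matplotlib 3.10.9 in Python 3.11.15. Some results that the rule would name are not reported here.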

Additional observations from a re-analysis of the deposited data

Results flagged for a closer look

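Re-isolated N1OE 4 stood apart from the other 3 N1OE libraries, with a summed Hox level of 26.1 CPM against 16.2 CPM in the next, and with 3.89 CPM over paralog numbers 10 to 13 against 0.137 CPM in the next, nearly all from Hoxc13. In re-isolated controls, unmarked control 6 had 1.75 CPM over paralog numbers 10 to 13, against 0.871 CPM in the next. In cultured controls, control 4 had 1.49 CPM over those numbers, against 0.0655 CPM in the next. In each case the gap to the nearest library, divided by the range of the group, passed Dixon's limit for an outlier at 95%. Of 29 groups of values examined 4 were so marked, and chance marks about 1 in 20 where values are independent and normally distributed. These sums overlap and cannot fall below 0, so that rate is only a rough guide. N1KO and cultured N1OE, with 3 libraries each, were not examined. The causes were not tested.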

How the results depend on the processing

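No Hox gene past the threshold changed direction under any of the alternatives run, and 80 of 488 repeats for single genes lost the call. The counts of Hox genes moved as follows, and counts over all genes moved in several of the same settings, as given below. For re-isolated N1OE over control (1 as reported) the count was 0 without a filter, by limma-voom and with 2 groups alone, and 2 with median ratio scaling and against unmarked controls. For N1KO over control (1 as reported) it was 6 with a pseudocount of 1 CPM, 4 without a filter, 0 with a filter of 5 CPM, 7 by limma-voom, 0 with 2 groups alone, 3 and 2 against marked and unmarked controls, and 6 with array weights, an alternative chosen after seeing the data. For re-isolated N1OE over N1KO (4 as reported) it was 7 with the pseudocount, 9 without a filter, 0 with a filter of 5 CPM and 9 with array weights. The Hox counts in comparisons with N1KO are not read against a share of all genes, because several Hox genes passed the filter of 1 CPM only through N1KO. With a filter of 5 CPM it was 3 (7 as reported) in re-isolated over cultured controls, 1 (4 as reported) in re-isolated over cultured N1OE, and 0 for marked over unmarked controls, where the pseudocount gave 2 and the sets by description 0. For the difference between NICD1 effects it was 1 with the pseudocount and 1 with unmarked controls.

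Counts over all genes moved to 743 without a filter in culture (1325 as reported), to 1627 and 2691 against marked and unmarked controls in re-isolated N1OE (1000), and to 240 with the pseudocount, 285 by limma-voom, 35 with 2 groups alone, 544 and 1008 against marked and unmarked controls and 492 with array weights in N1KO (93). They moved to 1608 with 2 groups alone and 2067 with array weights for N1OE over N1KO (1040), to 0 for marked over unmarked controls by description (3645), and to 224 by limma-voom and 983 and 1672 with marked and unmarked controls for the difference (459). Median ratio scaling turned the split in culture to 433 higher and 849 lower, against 583 higher and 742 lower as reported.

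Replicate numbers did not pair the libraries, since no pair of groups had every same-number correlation above 0.1. With the replicate block the Hox count was 0 in re-isolated N1OE over control and 0 in N1KO over control, and 2 for N1OE over N1KO, and the counts over all genes were 445 and 61 in the first 2.

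Leaving out each library in turn, with genes filtered anew or kept as in the full fit (keeping them was chosen after seeing the data), gave 0 to 1 Hox genes and 158 to 1783 genes in culture, 0 to 2 and 556 to 1090 in re-isolated N1OE, 0 to 1 and 12 to 108 in N1KO, and 0 to 5 and 465 to 940 for N1OE over N1KO. It gave 5 to 9 Hox genes and 6892 to 8125 genes in re-isolated over cultured controls, 3 to 4 and 6051 to 8496 in re-isolated over cultured N1OE, 1 to 2 and 2427 to 3821 for the control sets, and 0 and 235 to 497 for the difference. The causes were not tested. Depth limits what can be seen: 3 reads stand for up to 0.258 CPM, and most Hox values lie within a few CPM of 0.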
